A study of Arabidopsis thaliana with 4 samples.

Results

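PAP20 (locus AT3G52780) belongs to the purple acid phosphatases of Arabidopsis thaliana, and it was the only gene with a PAP symbol of that family for which a ratio could be assigned to the gene alone. Its transcript was far less abundant in pistillata inflorescences than in wild-type inflorescences, at a mean log2 ratio of -3.26 ± 0.23 (SD, n = 4 arrays), or 9.61-fold lower, in the likely direction of the ratios. Members were chosen by symbol, by probe and by ratio. The symbol had to be PAP followed by digits and the gene had to be a purple acid phosphatase. The probe had to list that gene alone and to have a value on all 4 arrays, and PAP20 was picked with its ratio in these data already known. Its ratios are therefore a description, and no test of them is given.

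Purple acid phosphatases release phosphate from organic esters at acidic pH. Their active site holds a pair of metal ions, and the bond between an iron and a tyrosine gives the purified proteins their purple colour. Plants secrete some of them and keep others in the vacuole, and several are made in larger amounts when phosphate is short. In Arabidopsis, PAP12 and PAP26 are abundant secreted and vacuolar enzymes, PAP10 sits on the root surface, and PAP15, which acts on phytate, the phosphate store of seeds and pollen, has been studied in pollen. No substrate of PAP20 is stated in these sources.

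The mutant pistillata lacks the function of a MADS-box regulator and so develops flowers without petals and stamens. It was set against wild type, and both were sampled as inflorescences. No probe in the annotation lists the mutated gene, so it could not be used to check the labels. Total RNA of both genotypes shared each of 4 spotted oligonucleotide arrays, 1 genotype per channel, and the deposited value of a probe is the log2 ratio of the channels. The sources used here do not give the allele, the wild-type strain, the age of the plants or the growth conditions. Nothing in the labels says that the arrays carry RNA from separate plants, so the spread between them may be technical. In whole inflorescences, fewer cells of a type and less RNA per cell cannot be told apart. Precision is limited by there being 4 arrays, and without signal strengths it is unknown how far a probe stood above background.

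The direction of the ratios rests on anther genes and not on the labels. As deposited, the log2 ratios of PAP20 were 3.23, -2.97, -3.32 and 3.53 on arrays 1 to 4. The labels put pistillata RNA in the first channel of arrays 1 and 3 and in the second channel of arrays 2 and 4, so these signs did not follow the labelled order. The same was seen over 25018 gene probes without a value at the limits of the table, where Pearson's r between arrays of like labelled order was -0.68 for arrays 1 and 3 and -0.68 for arrays 2 and 4. Over all 26156 gene probes with 4 values, these correlations across probes were -0.29 and -0.05. Arrays 1 and 4 were multiplied by -1, which places the anther genes SWEET8, SHT, ATA20 and TUA1 on the wild-type side by their own probes. If arrays 2 and 4 are turned instead, as the labelled order would have it, PAP20 averaged -0.16 ± 3.77 (SD, n = 4 arrays). If the common sign is exchanged, PAP20 is higher in pistillata by the same amount. The direction is thus called likely, and every p-value below takes it as given.

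The family was thinly covered in the annotation used here. Of 26474 gene probes, 13193 list no gene in it, and whether these read further family members was not tested. The gene table held 32 genes with a symbol of PAP and digits, of which 27 were purple acid phosphatases and 5 were other genes that share the abbreviation. Of the 27, 26 had no probe in the annotation used here, PAP10, PAP12, PAP15, PAP17, PAP23 and PAP26 among them, so they are not analysed here. PAP20, with 1 probe, was the remaining gene, 1 of 5386 genes tested. It was counted as a purple acid phosphatase by its symbol, and the other genes by their description in the gene table. PAP85 has a symbol of the same form and a probe of its own but is not described as a purple acid phosphatase in the gene table. Its log2 ratios were -1.86, 0.29, 0.40 and -0.55 on arrays 1 to 4, with both signs among them (mean -0.43 ± 1.04, SD, n = 4; limma adjusted p = 0.503).

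After turning, PAP20 stood at log2 ratios of -3.23, -2.97, -3.32 and -3.53 on arrays 1 to 4. All 4 arrays put it lower in pistillata, array 4 lowest and array 2 highest, and the values covered 0.564 log2 units. None was near the limit of the table at 6.64, which is a ratio of 100. The mean without 1 array lay between -3.36 and -3.17.

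**Figure D1:**
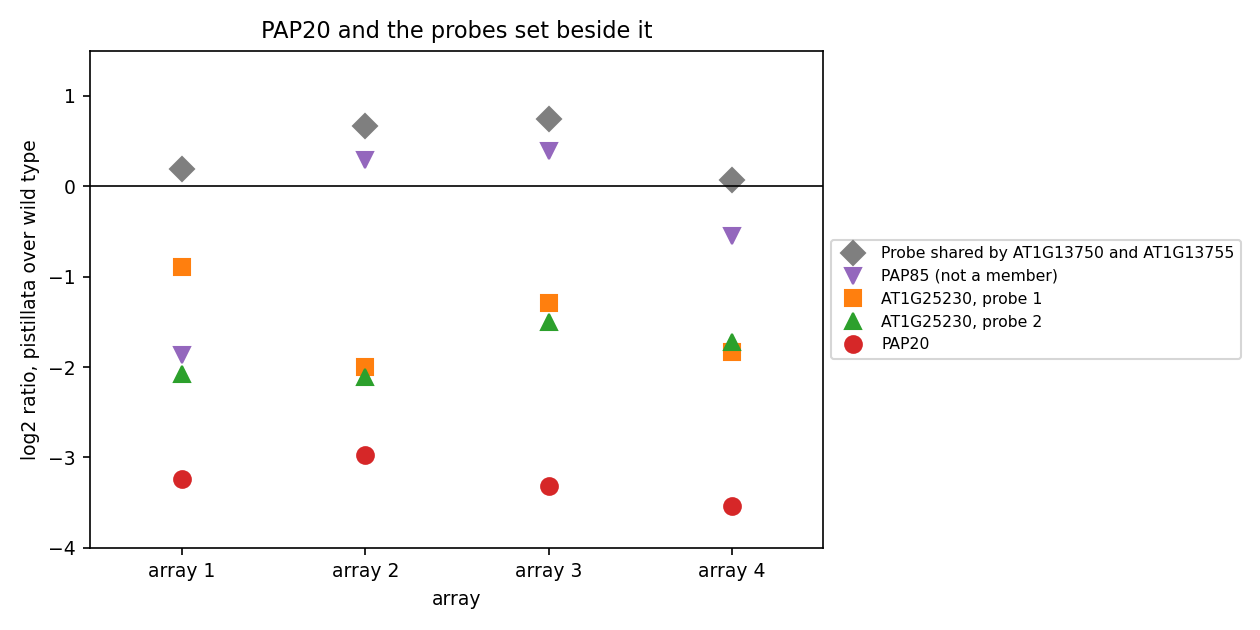
Log2 ratio of pistillata over wild type (y axis) on each of the 4 arrays (x axis), with 1 point per probe and array. PAP20 lies between -3.53 and -2.97 on all 4 arrays, below both probes of AT1G25230, while the probe shared by AT1G13750 and AT1G13755 lies above 0 and PAP85 has both signs.

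Among all genes, PAP20 ranked 66th from the lowest mean, with 65 of 5386 genes (1.21%) lower. It was at the low end on each array: 98, 86, 65 and 152 genes were lower than it on arrays 1 to 4. On all 4 arrays at once, 44 genes were lower than the highest PAP20 value. The opposite extreme was thinner, with 8 genes farther above 0 than PAP20 was below it. Values at the limit of the table were not left out of these counts. AT2G04300, for example, counts as lower than PAP20 on array 4 at -6.64, but had 0.50, 0.30 and 1.39 on arrays 1 to 3. Across all genes the median mean log2 ratio was 0.16, and 351 genes had a mean below -1, which is a change of more than 2-fold.

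By limma over all 5386 genes, at an adjusted p of 0.05 after Benjamini-Hochberg adjustment, 312 genes (5.79%) were called lower and 148 (2.75%) higher. PAP20 was 1 of those called lower, and since its ratio was known when it was picked, nothing is read from that call. Of all called genes 67.8% were lower, against 82.0% with every array centred on its median over the 26156 gene probes with 4 values. Centring brought the median over all genes to 0.05 and the PAP20 mean to -3.38. The share lower was 79.5% when the arrays were centred and scaled to a common spread, 57.2% without capped probes, 52.0% with array weights and 100% with trended and robust moderation.

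The PAP20 ratio was steady between arrays for a gene of its size of change. The 100 genes closest to it in rank, 50 on either side, had means between -4.47 and -2.38 and a median SD of 0.672 log2 units. Their SDs ran between 0.0814 and 3.73, and 4 of the 100 had a smaller SD than PAP20. Over all genes, most of them with small ratios, 35.4% had a smaller SD. PAP20 was picked with its values known, so its small spread is a description and nothing further is read from it.

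**Figure D2:**
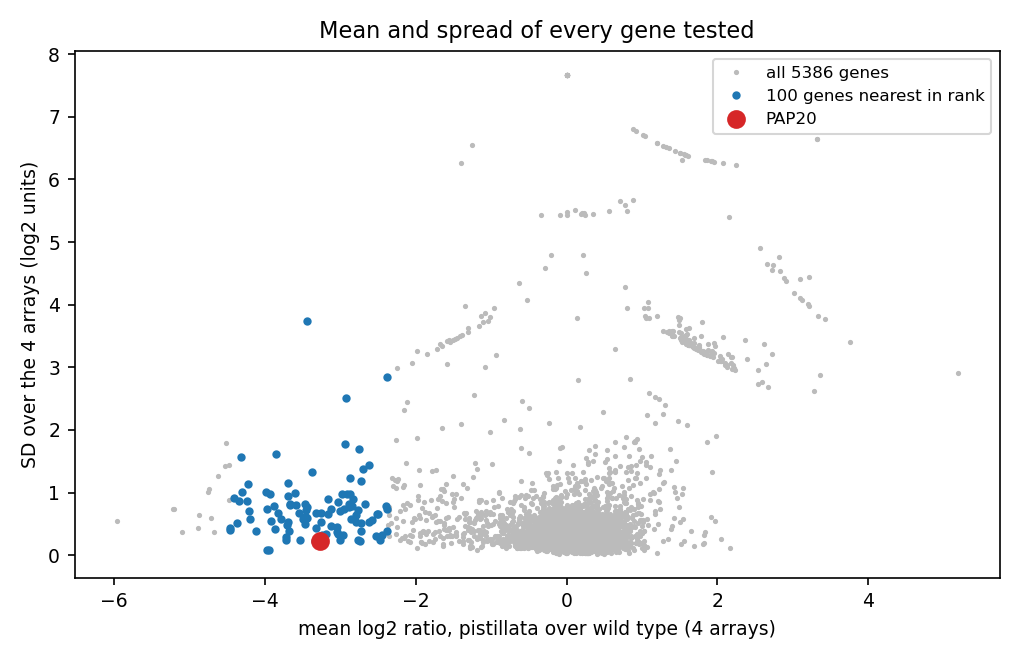
Mean log2 ratio of pistillata over wild type (x axis) against the SD over the 4 arrays in log2 units (y axis) for all 5386 genes, 1 point per gene, with PAP20 in red and the 100 genes nearest to it in rank in blue. PAP20, at a mean of -3.26 and an SD of 0.23, lies at the lower edge of the blue points. Of 219 genes with an SD above 3, 217 had a value at the limit of the table.

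The channel component of PAP20 was small. This is the share of a deposited ratio that goes with the channel rather than with the genotype, in the array order given by the anther genes, and it came to 0.12 log2 units. It is independent of the pistillata ratio and could be tested. PAP20 did not pass limma's test for it (adjusted p = 0.755, unadjusted p = 0.375). Over all genes, limma called 21 (0.39%) for a channel component at an adjusted p of 0.05.

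Of the 4 anther genes that set the signs, SWEET8 and SHT had means close to that of PAP20. ATA20 did so only as an average of 2 unlike probes. SWEET8, which carries sugar to developing pollen, stood at -4.40, -3.34, -3.66 and -3.45 on arrays 1 to 4. The 2 probes that SWEET8 shares with other genes averaged -3.65 and -3.91. SHT, a spermidine acyltransferase of the tapetum, stood at -2.96, -3.36, -3.49 and -4.84 on its own probe. A probe that lists SHT with GLC, AT5G57840 and HCT was above 0 on every array, at 1.03, 0.28, 0.35 and 0.20. Which transcript that shared probe reads was not tested. ATA20, an anther protein, had values of -2.85, -2.19, -2.80 and -3.98 as the mean of 2 probes. Taken singly, these probes averaged -4.03 ± 1.22 and -1.88 ± 0.28 (SD, n = 4 arrays). The PAP20 values overlap those of SWEET8, SHT and the ATA20 average. The PAP20 SD of 0.23 was smaller than their SDs of 0.47, 0.82 and 0.74, but close to the 0.28 of the second ATA20 probe. TUA1, an alpha-tubulin of pollen, was much closer to 0, with values between -0.86 and -0.30. Its SD of 0.26 was also close to that of PAP20. Which cells of the flower made the PAP20 transcript was not measured.

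The 5 genes whose values lay nearest to those of PAP20, by Euclidean distance over the 4 arrays, all carry only a locus number in the gene table. AT5G26060 was the nearest, at a distance of 0.199 log2 units, with values of -3.23, -2.89, -3.19 and -3.65. AT3G62710 followed at 0.264 and had -3.16, -3.19, -3.31 and -3.67. In AT2G38500, at a distance of 0.343, the values were -3.39, -2.74, -3.12 and -3.50. All 3 had their lowest value on array 4, as PAP20 did. AT2G03200 and AT4G03620 came next, at distances of 0.408 and 0.625 and with means of -3.32 and -3.53. In all, 17 genes lay within 1 log2 unit of PAP20, where the median distance over all genes was 6.9. These are likenesses over the 4 arrays of one comparison, which largely restate a similar mean.

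**Figure D3:**
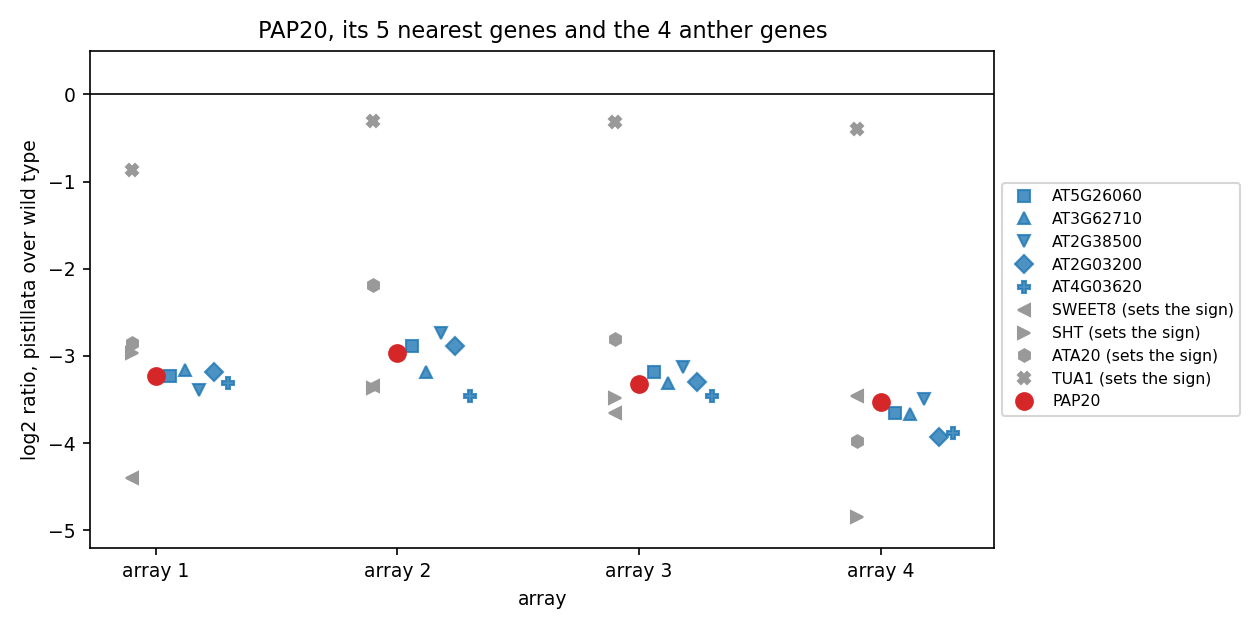
Log2 ratio of pistillata over wild type (y axis) on each array (x axis) for PAP20 in red, its 5 nearest genes in blue and the 4 anther genes that set the sign of each array in grey. The nearest genes keep within about the same band as PAP20 on every array, whereas SHT reaches -4.84 on array 4 and TUA1 has no value below -0.86.

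PAP20 has relatives beside it on chromosome 3. PAP21 and PAP22 are the third and the fourth gene after it in the gene table, and neither had a probe in the annotation, so whether the neighbouring phosphatase genes differed as PAP20 did is not analysed here. Directly after PAP20 lies AT3G52790, with log2 ratios of -0.08, -0.57, -0.56 and -0.44 on arrays 1 to 4. All 4 were below 0 and none came near the PAP20 values, and with a mean of -0.41 ± 0.23 (SD, n = 4) it did not pass limma's test (adjusted p = 0.109, unadjusted p = 0.0224). AT3G52800, the next gene, was reached only by a probe that also lists AT2G36320, which averaged -0.45 ± 0.22 (SD, n = 4).

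On the other side, the nearest gene with any probe was AT3G52760, the fourth away. Its probes also list AT2G36300 and had means of 0.26 and -0.14. FTSZ2-2, a plastid division protein, shared its probe with FTSZ2-1, at a mean of 0.36 ± 0.17 (SD, n = 4). AT3G52830, the fifth gene after PAP20, lacked a value on array 1 on its own probe, which stood at 0.56, -0.21 and 0.04 on arrays 2 to 4. A probe that it shares with AT5G54700 had 0.18, 2.94, 0.90 and 0.82 on arrays 1 to 4, all above 0. Low ratios like that of PAP20 were thus not seen in any neighbour with a probe. The difference between PAP20 and its neighbours was not tested, because PAP20 was picked for its ratio.

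**Figure D4:**
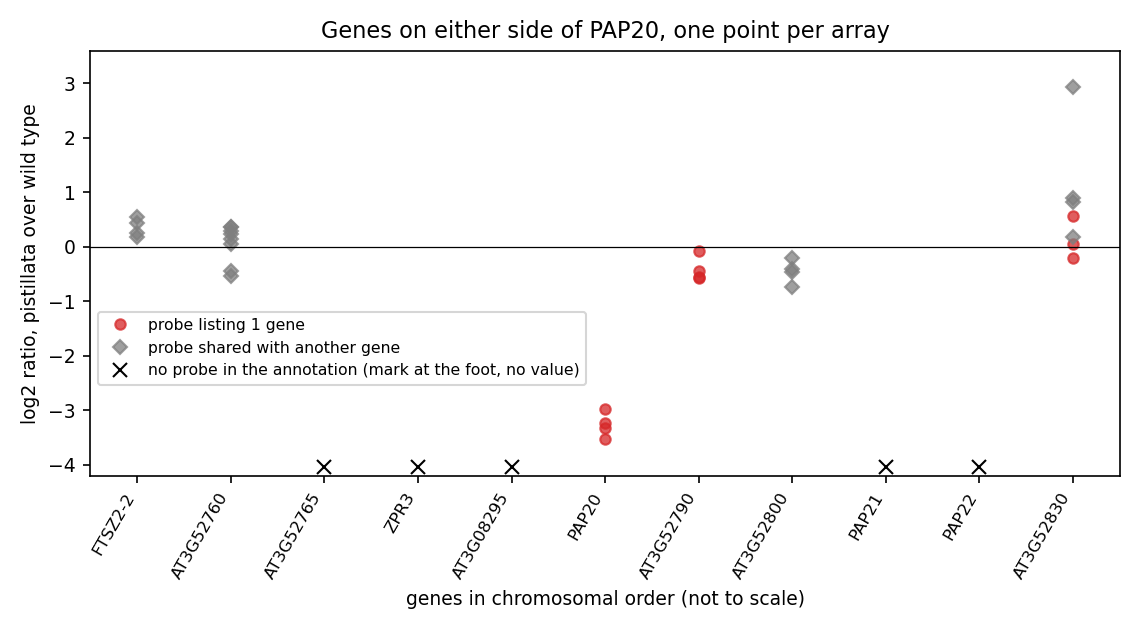
Log2 ratio of pistillata over wild type (y axis) for the 5 genes on either side of PAP20 in the order of the gene table (x axis, not to scale), with 1 point per array and probe, red for probes that list 1 gene, grey for shared probes and crosses at the foot for genes with no probe. PAP20 is at -3.53 to -2.97 and the measured neighbours lie between -0.74 and 2.94.

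A list of 29 loci had been written down for the family, and 2 of them, AT1G25230 and AT1G13750, have only a locus number in the gene table. They fall outside the symbol rule, and no family name is given to them here. AT1G25230 was measured by 2 probes of its own. The first had log2 ratios of -0.89, -2.00, -1.29 and -1.84 on arrays 1 to 4. The second had -2.07, -2.11, -1.50 and -1.72. Both were below 0 on every array, and the gap between them ranged from 0.11 log2 units on array 2 to 1.19 on array 1.

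Averaged over its probes, AT1G25230 had a mean log2 ratio of -1.68 ± 0.30 (SD, n = 4), which is 3.20-fold lower in pistillata and passed limma's test (adjusted p = 0.0056). Each probe also passed in the fit over 26156 single probes, at limma adjusted p of 0.021 and 0.00359, where 7.23% of probes were called lower and 2.98% higher. PAP20 lay below AT1G25230 on each of the 4 arrays, the differences in log2 ratio being -1.75, -0.91, -1.93 and -1.75. AT1G13750 was reached only by a probe that also lists AT1G13755. That probe had values of 0.20, 0.67, 0.74 and 0.07, all above 0, and did not pass (mean 0.42 ± 0.34, SD, n = 4; limma adjusted p = 0.161).

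Other genes of phosphate use with a probe of their own in the annotation were few. Of 60 loci listed for phosphate starvation and transport, 3 had a probe of their own with 4 values, as did 2 of 10 listed as other acid phosphatases and 0 of 20 listed for phytate and inositol. Limma over all genes called 0 of these 5, with an unadjusted p under 0.05 for 2, and their median was -0.12. For all genes the called shares were 5.79% lower and 2.75% higher, 30.8% had an unadjusted p under 0.05, and the median was 0.16.

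WRKY6, a transcription factor that represses the phosphate exporter gene PHO1, had log2 ratios of -0.50, -0.46, -0.32 and -0.32 on arrays 1 to 4. All were below 0 and close together, at a mean of -0.40 ± 0.09 (SD, n = 4), and the gene did not pass (limma adjusted p = 0.0707). With every array centred it did, at -0.51 (limma adjusted p = 0.0468). SIZ1, a SUMO ligase that modifies the phosphate starvation regulator PHR1, stood at -1.17, -1.41, -0.61 and -0.24. It was below 0 on all 4 arrays but spread widely, at -0.86 ± 0.53 (SD, n = 4; limma adjusted p = 0.0905). AT1G63010, AT2G38600 and AT2G39920, which carry only locus numbers, had means of -0.12, 0.44 and 0.42 (limma adjusted p = 0.509, 0.201 and 0.163).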

How the data were processed

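The authors deposited 1 table of log2 ratios between the channels of each of 4 arrays, which per the labels had been processed and normalized as in an earlier paper. How background was corrected, how ratios were normalized and which channel is the numerator is not stated there. The scale was read from the limits of the values, and the centring is unknown.

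Of 26933 rows, 424 empty and 35 control spots were left out. Genes were named through the platform annotation and a gene table (assembly TAIR10.1), from the 5784 probes that list 1 gene. The several probes of a gene were averaged, and values on all 4 arrays were required. Limma 3.58.1 in R 4.3.3 (lmFit with an intercept, eBayes, two-sided) was fitted over all 5386 genes and over all 26156 probes, with Benjamini-Hochberg adjustment and a threshold of 0.05. The script was tested on simulated data. The alternatives were the sign of the arrays, centring, scaling, 3 arrays, a channel term, no capped probes, medians of probes, a threshold of 0.01, trended and robust moderation, array weights and leaving out each array.

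The member, the lists, the tests and the settings were chosen with earlier results of these data known. The genes named are the member, the listed loci outside the rule, at most the 2 lowest and the 2 highest genes of each list, the 5 nearest in pattern, the 5 genes on either side and the 4 anther genes. PAP85 was added after its values were seen. No sequences of these genes were used here.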

Additional observations from a re-analysis of the deposited data

Results flagged for a closer look

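Of 36 sets of 4 array values examined (PAP20, the other named genes, and the single and shared probes of the listed loci and of the neighbours), 2 held a value far from the other arrays, where chance gives about 1 in 20. PAP20 was not among them. The probe that lists AT4G29270 and AT4G29260 stood at 0.69 on array 4, against -0.18, -0.20 and -0.27 on arrays 1 to 3, a gap of 0.909 of the range. A probe that lists AT1G04040 and AT5G44020 stood at 1.25 on array 2, against -0.10, -0.09 and 0.12 on arrays 1, 3 and 4, a gap of 0.833 of the range.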

How the results depend on the processing

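PAP20 stayed between -3.41 and -3.17 under every alternative that keeps arrays 1 and 4 turned. Turning arrays 2 and 4 by the labelled order gave -0.16, and limma then called 0 purple acid phosphatase genes and 0 genes lower or higher, with 8 lower and 10 higher at an unadjusted p under 0.05. That turning also changed the sign of means, to 0.092 for AT1G25230, 0.097 for AT1G63010, 0.43 for SIZ1, 0.080 for WRKY6, -0.15 for AT2G38600 and -0.10 for AT2G39920. AT1G25230 was called at 0.05 under all the others, with a limma adjusted p between 0.000691 and 0.0362. Of the 5 listed genes 1 was lower after centring, after centring with scaling and with array weights (WRKY6 each time), and 1 without capped probes (SIZ1), against 0.

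Genes called lower numbered 145 at an adjusted p of 0.01 and 159 to 192 without 1 array, against 312. Genes called higher numbered 77 after centring, 89 after centring and scaling, 86 with the channel term, 311 without capped probes, 19 at 0.01, 365 with array weights, 0 with trended and robust moderation in limma (1278 at an unadjusted p under 0.05) and 19 to 43 without 1 array, against 148. The cause of these shifts was not tested. Each ratio already pairs the genotypes within an array, so no further block was fitted. Signal over background is unknown for every probe.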

Other observations

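Probes that list several genes name none of them, but some reach loci of phosphate use. LPR1 and LPR2 encode multicopper oxidases that arrest root growth when phosphate is short, and 2 probes list both. In the fit over single probes, which called 7.23% lower and 2.98% higher, these were tested as probes. The first had log2 ratios of -3.01, -2.66, -2.72 and -1.15 on arrays 1 to 4, all below 0, with a mean of -2.38 ± 0.84 (SD, n = 4; limma adjusted p = 0.0196). The second had 0.41, 0.37, 0.61 and 0.44, all above 0, with a mean of 0.45 ± 0.10 (SD, n = 4; limma adjusted p = 0.0563). The probes therefore differed in sign on every array, and which transcript each one reads was not tested.

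A probe that lists AT4G22990 and AT4G11810 stood at -1.99, -1.35, -0.58 and -1.71, all below 0 (mean -1.41 ± 0.61, SD, n = 4; limma adjusted p = 0.0372). Another probe lists both of them and AT1G63010 and stood at 0.29, 0.13, -0.12 and 0.05 (mean 0.09 ± 0.17, SD, n = 4; limma adjusted p = 0.615). Among the loci listed as other acid phosphatases, the pair AT5G51260 and AT4G25150, known here by locus number only, shared a probe at -0.57 ± 0.03 (SD, n = 4; limma adjusted p = 0.0258) and another at -0.03 ± 0.17 (adjusted p = 0.86 by limma). The pair AT1G04040 and AT5G44020 shared a probe at 0.65 ± 0.11 (SD, n = 4; limma adjusted p = 0.0231) and another at 0.30 ± 0.65 (adjusted p = 0.492 by limma). AT4G29270 and AT4G29260 shared a probe at 0.01 ± 0.45 (adjusted p = 0.977 by limma). A probe that lists these together with AT2G39920 and AT2G38600 stood at 0.07 ± 0.14 (adjusted p = 0.662 by limma).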
